A study of Mus musculus with 12 samples.

Results

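CD4-CD8 double-negative thymocytes that carried a CD2-Lmo2 transgene and lacked Lyl1 were compared with wild-type double-negative thymocytes, 3 arrays against 6, to describe which genes differ from wild-type once Lyl1 is lost. The 9 arrays were taken by genotype from a series of 12, whose other 3 arrays hold thymocytes with the transgene and intact Lyl1, and these are called Lmo2 arrays. All mice are labelled C57BL/6 and 2 months old, and the 6 transgenic samples share the CD2-Lmo2 transgene, which the CD2 promoter drives in lymphoid cells. RNA was read on Illumina MouseWG-6 v2.0 bead arrays, 1 sample per array. Nothing in the labels says that each array is a separate mouse, so p-values measure only the spread between these samples, which may be technical.

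Double-negative thymocytes are the earliest T-cell precursors of the thymus, in which T-lineage genes are switched on and stem and progenitor genes are shut down. LMO2 is a LIM-only adaptor without DNA binding of its own. It bridges basic helix-loop-helix factors, which read the E-box CANNTG, to LDB1 and GATA factors. LYL1 is one such helix-loop-helix factor, related to TAL1. Enforced Lmo2 in thymocytes is known to give them self-renewal and, later, T-cell leukaemia.

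Of the 6 wild-type columns, 3 bear the added word NHD13 in the raw table, and no label explains it. These NHD13-named arrays and the 3 numbered wild-type arrays differed at 699 of 10526 genes (6.64%), so differences are also given against each kind. All levels are log2 intensities after background correction and quantile normalisation, and a difference is the knockout mean minus the wild-type mean with its standard error (SE). A changed gene is one with an adjusted p (Benjamini-Hochberg, over all 10526 genes) under 0.05 in limma's moderated test, the source of every adjusted p below. Between 37.9% and 43.0% of probes were detected on each array, and the number of arrays limits the precision. All 12 double-negative thymocyte markers, among them Thy1, Cd3e, Il2ra, Kit, Notch1 and Bcl11b, were detected on every knockout and every wild-type array. Of the 12, 0 changed, where 1.04% of all genes did, and 1 had an unadjusted p under 0.05, where 12.1% of all genes did. Cd4 lay near background, at 5.41, 5.25 and 5.42 on the knockout arrays and 4.95 to 5.99 on the wild-type arrays.

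The targeted gene itself read 4.81, 5.03 and 4.91 on the 3 Lmo2 Lyl1-knockout arrays, where it was not above background, against a lowest, median and highest of 6.60, 7.06 and 7.17 on the wild-type arrays. Lyl1 was thus at least 3.50-fold lower in the knockout (adjusted p = 0.00351). On the Lmo2 arrays it stood at 9.80, 9.97 and 11.39. The Lmo2 probe differed by 0.39 ± 0.47 between knockout and wild-type (adjusted p = 0.741). Its difference was -0.34 from the numbered wild-type arrays (adjusted p = 0.989) and 1.11 from the NHD13-named ones (adjusted p = 0.072). Between the kinds, NHD13-named minus numbered, the Lmo2 probe differed by -1.44 (adjusted p = 0.0437). No source used here states whether the transgene carries the sequence of this probe.

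Between Lmo2 Lyl1-knockout and wild-type thymocytes 109 of 10526 genes changed (1.04%), 67 higher (0.637%) and 42 lower (0.399%) in the knockout. At an unadjusted p under 0.05 there were 1272 (12.1%). For scale, 12.6% of genes changed between Lmo2 and wild-type arrays and 10.3% between Lmo2 Lyl1-knockout and Lmo2 arrays. The median difference over all genes was -0.01. Of the 109 genes, 25 were on lists of granulocyte and macrophage genes and all 25 were higher in the knockout. That count was 38, 14 and 12 without knockout replicates 1, 2 and 3. The other 84 were 42 higher and 42 lower genes, with median differences of 1.25 and -1.32, and 61 of the 84 differed by at least 2-fold. The knockout and wild-type arrays overlapped for none of the 84, which the same contrast selected, and over all genes they did not overlap for 903 (8.58%).

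**Figure D1:**
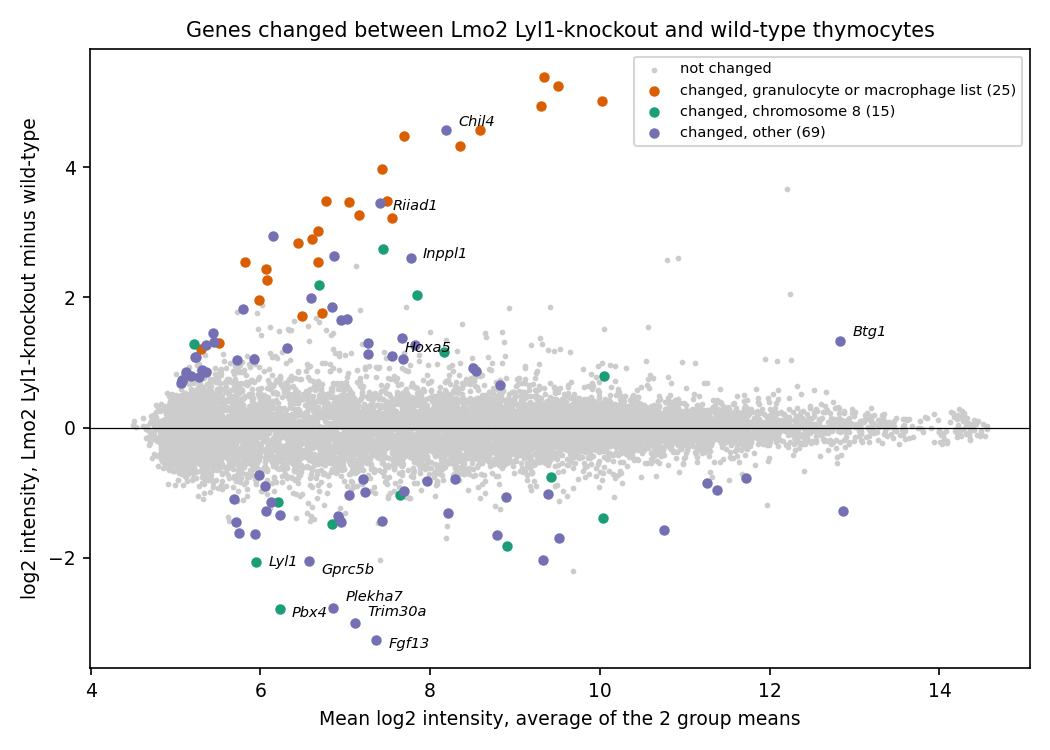
Each point is 1 of 10526 genes: the horizontal axis is the mean log2 intensity of the 2 groups and the vertical axis the log2 difference, Lmo2 Lyl1-knockout minus wild-type. Orange marks the 25 changed genes of the granulocyte and macrophage lists, all above 0; green marks the 15 other changed genes on chromosome 8 and purple the remaining 69, which lie on both sides of 0.

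The granulocyte signal was uneven over the knockout arrays, and its values are needed to read the other genes. Of the 73 granulocyte-list genes measured, 24 were higher and 0 lower in the knockout, where 0.637% and 0.399% of all genes were. The list median was 1.2. The neutrophil granule gene Ngp averaged 12.03 ± 1.24 on the knockout arrays and 6.65 ± 1.49 on the wild-type arrays (SD, n = 3 and 6; adjusted p = 0.0042). The summed linear level of the list was 44500, 108000 and 114000 on knockout replicates 1, 2 and 3, against 12000 to 14400 on the numbered wild-type arrays and 12200 to 26400 on the NHD13-named ones. Knockout replicate 1 was therefore the lowest, and its log2 level minus the mean of the other two had a median of -2.07 over the 24 changed granulocyte genes, 22 of which lay below -0.8. The macrophage and monocyte list followed the same order of arrays, at 4090, 8160 and 8300 on the knockout arrays and 1480 to 2890 on the wild-type arrays. The gene Lyz2 is on both lists and enters both sums, so the shared order is in part built in. In bulk RNA, more cells of a type and more RNA per cell cannot be told apart.

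Of the 42 higher genes off the lists, 8 showed this granulocyte-like gap, with replicate 1 more than 0.8 below the other knockout arrays. The limit of 0.8 and the 8 genes were chosen after their values were seen. They were Chil4, a chitinase-like protein of the same family as the granulocyte-list gene Chil3; Itgb2l, an integrin beta chain; Anxa3, an annexin of neutrophil granules; Mgst1, a microsomal glutathione transferase; Ltb4r1, the leukotriene B4 receptor; Ear3, an eosinophil-associated ribonuclease; the C-type lectin Clec4b1; and 6430548M08Rik. Chil4 read 8.43, 11.47 and 11.51 on the knockout arrays against a lowest, median and highest of 4.94, 6.10 and 6.87 on the wild-type arrays, a difference of 4.57 ± 0.62 (adjusted p = 0.00344). Anxa3 differed by 2.64 ± 0.40 (adjusted p = 0.0062) and Ltb4r1 by 1.85 ± 0.32 (adjusted p = 0.0122). Itgb2l was not detected on any wild-type array and was at least 5.10-fold higher in the knockout (adjusted p = 0.00344). Without knockout replicate 2 or without replicate 3 the calls of Anxa3, Mgst1, Ltb4r1, Ear3 and 6430548M08Rik were lost, with adjusted p-values of 0.0549 to 0.27, while Chil4 and Itgb2l kept theirs. The Ear3 call was also lost without wild-type replicate 2 (adjusted p = 0.0542) or any NHD13-named array (adjusted p up to 0.0891). The part of granulocyte RNA in these 8 genes was not tested.

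For the other 34 higher genes replicate 1 minus the mean of the other knockout arrays lay between -0.758 and 0.765. The changed granulocyte genes spanned -3.1 to -0.49 by the same measure, so 5 of the 34 lay within their range, and the part of granulocyte RNA in these was not tested. Riiad1, which encodes a small protein with an RIIa domain, had the largest difference among them. It read 9.12, 9.39 and 8.89 on the knockout arrays against 5.11, 5.83 and 6.10 (lowest, median and highest) on the wild-type arrays, a difference of 3.44 ± 0.27 (adjusted p = 6.23e-05). The Lmo2 arrays stood at 5.57, 6.40 and 6.24, of which 2 were above the highest wild-type array, and their difference from wild-type of 0.38 did not pass the threshold (adjusted p = 0.405). The gap to the knockout arrays exceeded the spread within each group, and the call held without any 1 array.

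Inppl1, which encodes the lipid phosphatase SHIP2, read 8.77, 9.38 and 9.07 on the knockout arrays against 5.84, 6.57 and 6.89 on the wild-type arrays, a difference of 2.61 ± 0.27 (adjusted p = 0.000552). Its other 2 probes differed by 2.64 and 0.77, both past the threshold over probes. Inpp4b, a phosphatase of inositol lipids on chromosome 8, 31 measured genes before Lyl1, read 9.05, 8.90 and 8.50 against 5.26, 6.13 and 6.59, a difference of 2.74 ± 0.33 (adjusted p = 0.0019). Its other probes differed by 1.54 and 0.37, neither past the threshold. On the Lmo2 arrays both genes were lower than in wild-type, with differences of -0.91 (adjusted p = 0.0429) for Inppl1 and -1.11 (adjusted p = 0.0466) for Inpp4b.

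Among the remaining higher genes, Fn3krp, a ketosamine kinase that repairs glycated proteins, was not detected on any wild-type array. It read 6.86, 6.51 and 6.75 on the knockout arrays and was at least 2.70-fold higher (adjusted p = 0.000184). Eya1, a transcriptional co-activator with phosphatase activity, was also undetected in wild-type, at 5.76, 6.18 and 6.57 on the knockout arrays, and was at least 1.87-fold higher (adjusted p = 0.0019). Stc1, a secreted glycoprotein hormone, averaged 1.67 ± 0.28 above wild-type (adjusted p = 0.00951), with 7.85, 8.11 and 7.61 on the knockout arrays against 5.47 to 6.78, and lost its call without knockout replicate 2 (adjusted p = 0.0879). App, the amyloid precursor protein, differed by 1.37 ± 0.26 (adjusted p = 0.022). The App call was lost in 6 of the 9 fits without 1 array, namely each fit that left out a knockout array or an NHD13-named array, with adjusted p-values up to 0.143, and its other 2 probes differed by 0.52 and 0.77 without passing the threshold. These genes did not differ past the threshold between Lmo2 and wild-type arrays, except Stc1, with a difference of -1.24 there (adjusted p = 0.0109).

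**Figure D2:**
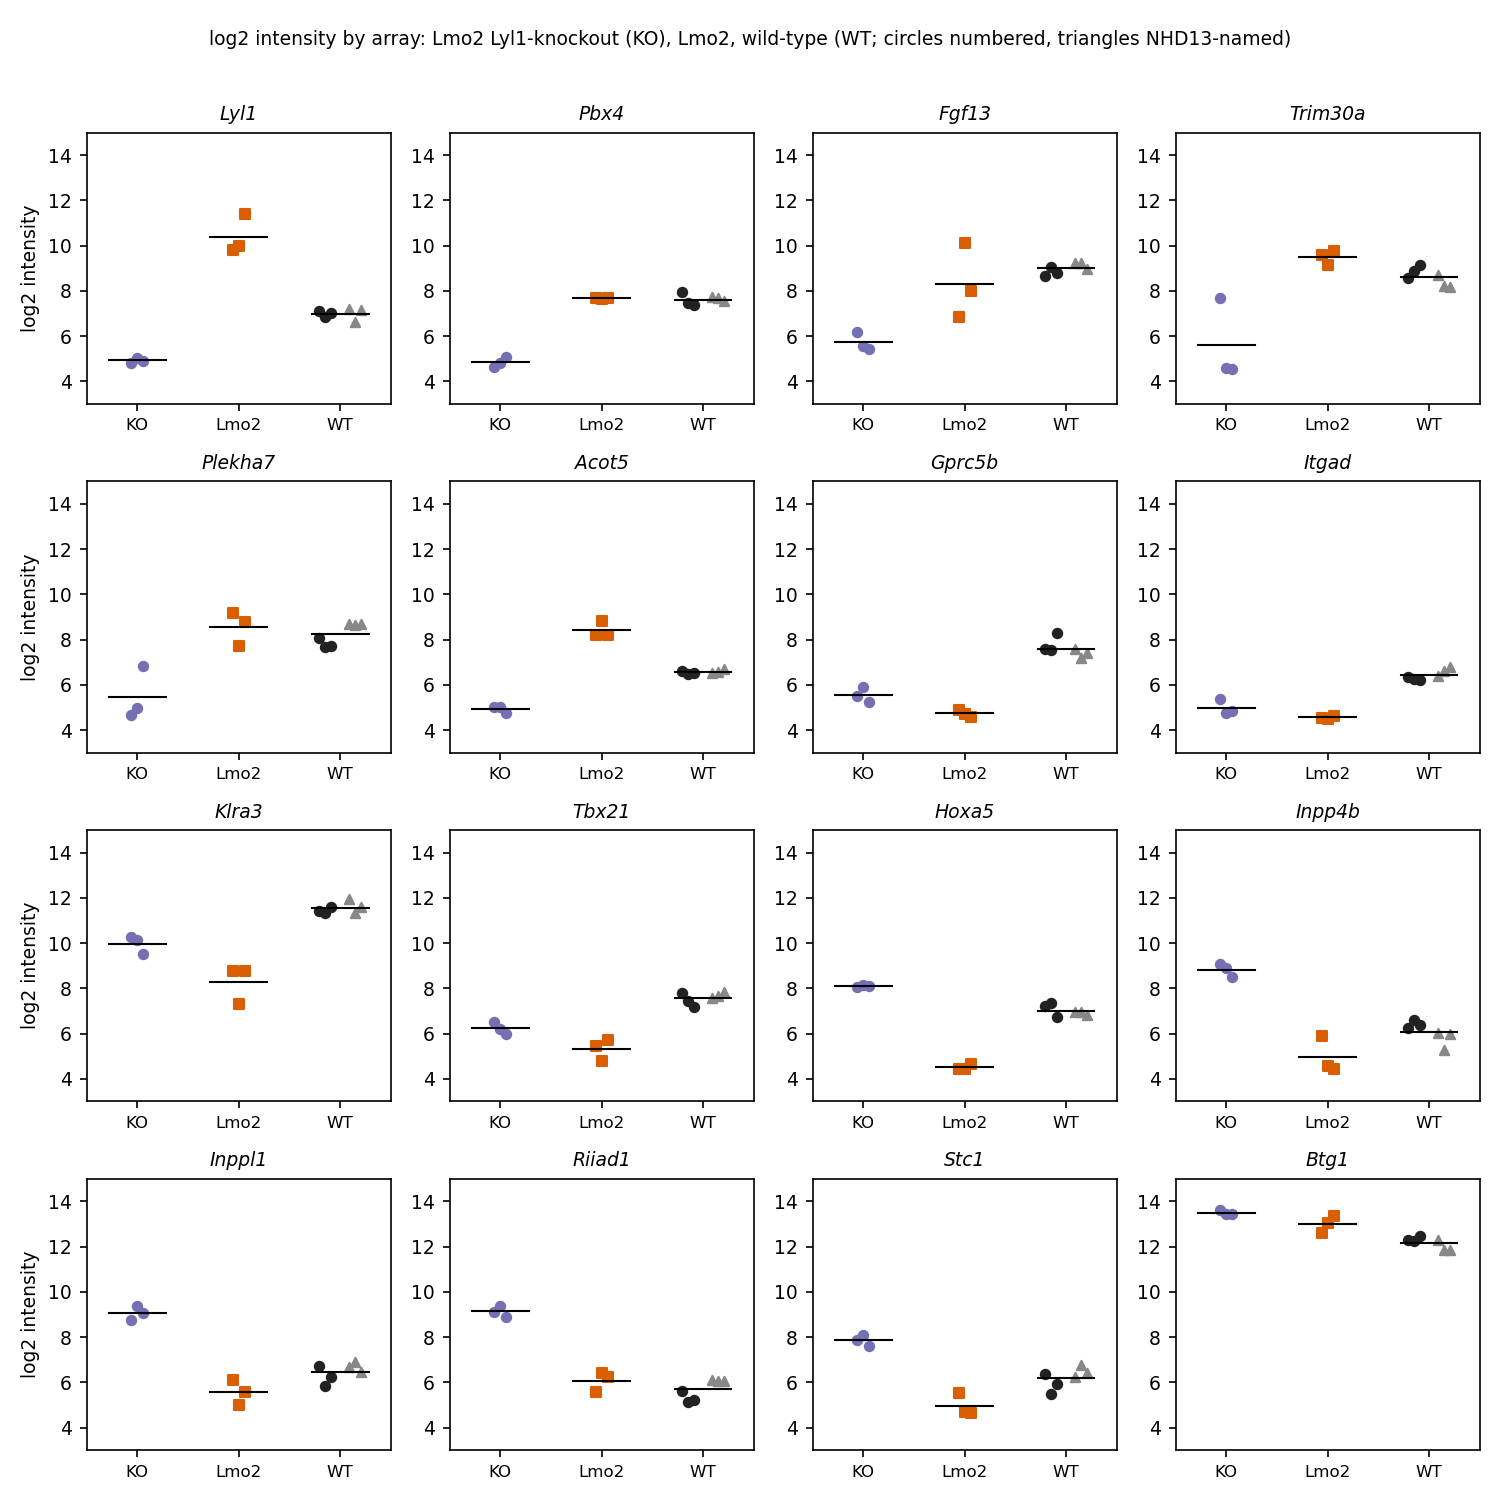
log2 intensity of 16 changed genes on each array, with knockout (KO) arrays on the left, Lmo2 arrays in the middle and wild-type (WT) arrays on the right; horizontal bars are group means, and triangles are the NHD13-named wild-type arrays. Knockout and wild-type points are separate in every panel, while Trim30a and Plekha7 each have 1 knockout array closer to wild-type than the other knockout arrays.

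Among the lower genes, the largest fitted differences off the lists were those of Fgf13, Trim30a, Pbx4 and Plekha7, of which Pbx4 is described with its chromosome. Fgf13, a non-secreted fibroblast growth factor homologue that binds sodium channels and microtubules, read 6.19, 5.56 and 5.45 on the knockout arrays against 8.66, 9.0 and 9.24 on the wild-type arrays (lowest, median and highest), a difference of -3.26 ± 0.51 (adjusted p = 0.00637). The 3 Lmo2 arrays were spread widely, at 6.85, 10.10 and 7.99. A further Fgf13 probe differed by -1.81 without passing the threshold, and the call was lost without knockout replicate 2 (adjusted p = 0.0534) or 3 (adjusted p = 0.0597).

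Trim30a, an interferon-inducible ubiquitin ligase of the TRIM family, was split over the knockout arrays, at 7.68, 4.59 and 4.56, against 8.15 to 9.13 on the wild-type arrays. Replicate 1 was detected and lay close to the wild-type range, and the other two were not above background. Its difference of -2.99 ± 0.56 (adjusted p = 0.0199) became -2.48 and -2.47 without replicates 2 and 3, with adjusted p-values of 0.153 and 0.157. Plekha7, an adherens-junction protein, showed a like split in which replicate 3 stood out, at 4.65, 4.96 and 6.83 against 7.66 to 8.69 on the wild-type arrays (difference -2.76 ± 0.47, adjusted p = 0.0103). Its call was lost without replicate 1 (adjusted p = 0.0502) or 2 (adjusted p = 0.0943), and against the numbered wild-type arrays (adjusted p = 0.058). Both genes lie on chromosome 7, and neither differed past the threshold between Lmo2 and wild-type arrays.

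Gpc1, a cell-surface heparan sulphate proteoglycan, was even over the knockout arrays, at 7.86, 8.64 and 8.44 against 10.22 to 10.48 in wild-type. It differed by -2.03 ± 0.26 (adjusted p = 0.00279) and kept its call without any 1 array. Dntt, the terminal transferase that adds bases at rearranging antigen receptor genes, fell by 0.78 (SE 0.14, adjusted p = 0.0133), with 11.46, 11.12 and 11.42 on the knockout arrays against 11.91, 12.10 and 12.37. Its call was lost without knockout replicate 2 (adjusted p = 0.121) or 3 (adjusted p = 0.0644).

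Of the changed genes off the lists, 15 shared a chromosome with Lyl1, counting Lyl1 itself. They were 2.73% of the 549 genes tested on chromosome 8, against 69 of 9977 elsewhere (0.692%). On the other autosomes and X the share lay between 0% and 1.63%. With listed genes and besides Lyl1, 16 genes of chromosome 8 changed, and 10 without knockout replicate 3, where 47 genes changed in all. Within 150 measured genes on either side of Lyl1, 12 of 300 changed (4%, against 1.04% of all genes), 5 higher and 7 lower, of which Hp is a granulocyte-list gene. Lmo2 and wild-type arrays, which both carry Lyl1, differed at 24 of those 300 (8%, against 12.6% of all genes). The effect of the missing gene and that of DNA linked to the targeted allele cannot be told apart in this design.

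Pbx4, a homeodomain gene of the PBX family 118 measured genes before Lyl1, was the most clearly separated. Its brightest probe read 4.65, 4.80 and 5.06 on the knockout arrays, where that probe was not above background. It read 7.37 to 7.95 on the wild-type and 7.69, 7.63 and 7.69 on the Lmo2 arrays. That probe was at least 5.41-fold lower than in wild-type (adjusted p = 2.01e-06). The other 2 Pbx4 probes had differences of -0.74 and -0.91, which did not pass the threshold. On 1 knockout array Pbx4 was detected by a probe other than the brightest, so the bound holds for the brightest probe only. Zfp869, a zinc-finger gene near it, differed by -1.81 ± 0.14 at its brightest probe (adjusted p = 6.23e-05), at 7.98, 8.22 and 7.78 against 9.67 to 9.85, and its 3 other probes differed by -0.18 to -0.51 without passing. The neighbouring zinc-finger gene Zfp868 was higher by 1.16 ± 0.21 (adjusted p = 0.0147), at 8.54, 9.10 and 8.61 against 6.98 to 7.82, and its other probe by 1.26.

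Closer to Lyl1, the phenylalanyl-tRNA synthetase subunit gene Farsa, 4 measured genes after it, read 8.78, 9.0 and 8.81 on the knockout arrays against 6.24, 7.0 and 7.20, a difference of 2.04 ± 0.22 (adjusted p = 0.000676). Wdr83os, 18 genes after Lyl1, differed by -1.39 ± 0.20 (adjusted p = 0.00455). Before Lyl1, Inpp4b and the deubiquitinase gene Usp38 are adjacent among the measured genes, 31 and 32 before it. They differed in opposite directions, by 2.74 as above and by -1.40 ± 0.18 (adjusted p = 0.00279), and the other Usp38 probe stood at 0.92 without passing the threshold. Pgpep1, a pyroglutamyl peptidase 98 genes before Lyl1, fell by 1.48 (SE 0.18, adjusted p = 0.0017), Zfp930 by 1.03 (adjusted p = 0.00469) and Smim7 by 0.76 (adjusted p = 0.00634), while Gmip rose by 0.79 (adjusted p = 0.0465), though not at its other probe. A second Pgpep1 probe differed by -0.99 without passing (adjusted p over probes 0.197). Zfp868, Wdr83os, Zfp930, Smim7 and Gmip are named for their position, after their values were seen. Of the 5 measured genes on each side of Lyl1 only Farsa changed: Nacc1, Trmt1, Nfix, Syce2, Calr and the others did not pass the threshold, although a second Trmt1 probe did (-1.47 ± 0.28, adjusted p over probes 0.0285).

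**Figure D3:**
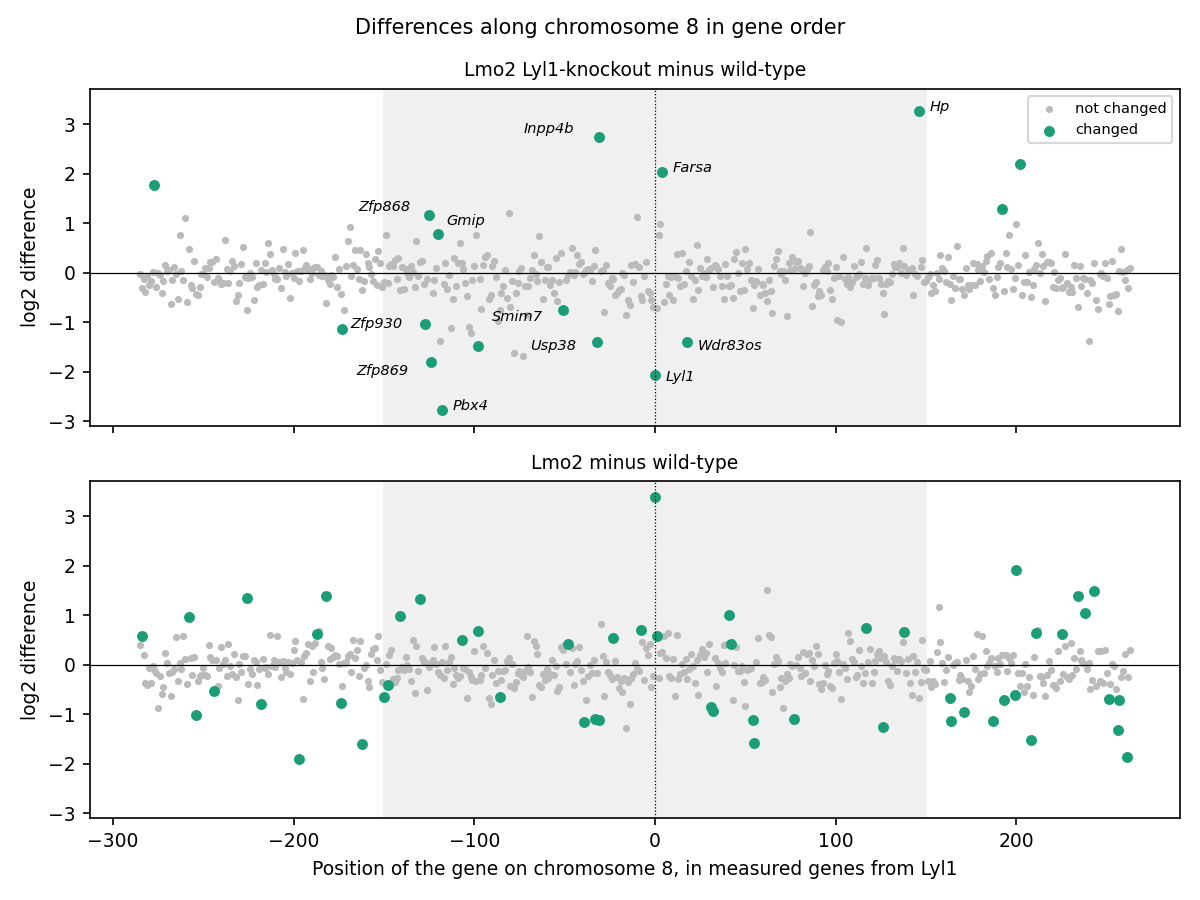
The 549 tested genes of chromosome 8 in gene order, counted from Lyl1 (dotted line), with the log2 difference of the knockout from wild-type above and of the Lmo2 group from wild-type below; green points passed the threshold and the shaded band spans 150 measured genes on each side. In the upper panel 12 genes of the band besides Lyl1 passed, 5 above and 7 below 0, with Pbx4 the lowest.

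Several genes were lower than wild-type whether or not Lyl1 was present. The 2 comparisons share their wild-type arrays, so the values are set side by side. Klra3 and Klra10, Ly49 receptors of natural killer (NK) cells, read 10.28, 10.12 and 9.50 and 9.12, 8.77 and 8.12 on the knockout arrays, against 11.31 to 11.95 and 10.19 to 10.65 in wild-type. Klra3 differed by -1.57 ± 0.30 in the knockout (adjusted p = 0.0258) and by -3.24 ± 0.30 in Lmo2 (adjusted p = 1.79e-05). Klra10 differed by -1.70 ± 0.29 in the knockout (adjusted p = 0.00999) and by -3.16 ± 0.29 in Lmo2 (adjusted p = 1.3e-05). Tbx21, the transcription factor T-bet of NK and type 1 T cells, differed by -1.35 ± 0.21 (adjusted p = 0.00699) and -2.28 ± 0.21 (adjusted p = 1.74e-05). For all 3 genes the knockout arrays lay above the Lmo2 arrays, by 1.67, 1.46 and 0.93 (adjusted p = 0.00799, 0.0126 and 0.0301).

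These 3 were the changed members among 30 measured NK and innate lymphoid genes, with 0 higher and a list median of -0.42, which makes 10% of the list lower against 0.399% of all genes. At an unadjusted p under 0.05 there were 15 of the 30 (50%), counted in either direction, against 12.1% of all genes. Against the numbered wild-type arrays 2 members were lower and 0 higher, with a list median of -0.39. Against the NHD13-named ones 9 were lower and 1 higher, with a median of -0.51. Of all genes, 0.304% were lower against the first kind and 6.43% against the second. In Lmo2 versus wild-type 21 members were lower and 2 higher, where 5.92% of all genes were lower and 6.66% higher. Klra9 and Il2rb stood at -1.39 (adjusted p = 0.0556) and -1.02 (adjusted p = 0.13). The summed level of the list was 15100 to 17300 on the knockout arrays, against 19800 to 27600 on the wild-type arrays, without overlap, and the share of NK cells in this was not tested. Without knockout replicate 2 or 3 the calls of Klra10 and Tbx21 were lost (adjusted p 0.0534 to 0.085), and that of Klra3 in 6 of the 9 fits without 1 array, those without knockout replicate 2 or 3, wild-type replicate 1 or 3, or either of a pair of NHD13-named arrays (adjusted p up to 0.197). With the 2 kinds of wild-type array as separate groups, Klra3 stood at -1.47 against the numbered ones without passing (adjusted p = 0.107). With the NHD13-named arrays left out, neither Klra3 (adjusted p = 0.231) nor Klra10 (adjusted p = 0.143) passed. In the fit of the knockout and numbered arrays alone, given below, both passed, so these calls depended on the fit.

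Gprc5b, an orphan G-protein-coupled receptor, read 5.50, 5.90 and 5.25 on the knockout arrays against 7.18 to 8.28 in wild-type, a difference of -2.05 ± 0.22 (adjusted p = 0.000676). It was not above background on any Lmo2 array, at least 5.01-fold below wild-type. A second probe differed by -0.61 without passing. Dgkeos, the antisense transcript of the diacylglycerol kinase epsilon gene, read 8.04, 7.68 and 8.20 against 9.49 to 9.74, with differences of -1.64 ± 0.13 in the knockout (adjusted p = 6.23e-05) and -1.23 ± 0.13 in Lmo2 (adjusted p = 5.06e-05). Itgad, the integrin alpha D chain, differed by -1.45 ± 0.17 in the knockout (adjusted p = 0.00136) and was not above background in Lmo2, at least 2.25-fold below wild-type. A second Itgad probe differed by -0.88 in the knockout without passing (adjusted p over probes 0.0898). Gprc5b, Dgkeos and Itgad kept their call in the knockout without any 1 array, and the difference between the transgenic groups did not pass the threshold for any of them (adjusted p = 0.0619, 0.115 and 0.204). Rtn4rl1, a Nogo receptor relative, differed by -1.33 ± 0.22 in the knockout (adjusted p = 0.00812) and by -1.88 ± 0.22 in Lmo2 (adjusted p = 9.23e-05), and its knockout call was lost without replicate 3 (adjusted p = 0.0644).

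A comparison without shared controls sets the knockout against the numbered and Lmo2 against the NHD13-named wild-type arrays, each over 6 arrays. Off the granulocyte and macrophage lists, 31 genes were lower in the knockout (0.295% of all genes were lower) and 831 in Lmo2 (8.09% with listed genes), and 7 genes were in both, which is 22.6% of the knockout's and 0.842% of Lmo2's. Of 23 higher genes in the knockout (0.38% with listed genes), 2 were among the 785 higher in Lmo2, Btg1 and Ggact, 8.70% of the first and 0.255% of the second, while 7.53% of all genes were higher in Lmo2. Ggact also differed between the kinds of wild-type array (adjusted p = 0.0306). Against all wild-type arrays a second Ggact probe differed by 0.48 in the knockout without passing (adjusted p over probes 0.6). With the wild-type arrays exchanged, 40 lower genes were shared, 2.15% of 1861 in the knockout and 18.4% of 217 in Lmo2, where 17.7% and 2.11% of all genes were lower. In that arrangement 18 higher genes were shared, 1.24% of 1450 and 8.26% of 218, where 14.2% and 2.12% of all genes were higher. Dgkeos, Gprc5b, Itgad, Klra3 and Klra10 were among the shared lower genes in both arrangements.

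Because LMO2 complexes can reach DNA through E-boxes and GATA motifs, the upstream windows of those genes were read for both. Of the 5, Itgad is named only. For the other 4, from RefSeq, the 250 bases before the gene's start are printed, 5′ to 3′ on the gene's strand (GRCm38.p6), with each CANNTG and each GATA, on either strand, in capitals. Klra3 (chr6:130337627-130337876, minus strand) and Klra10 (chr6:130281929-130282178, minus strand) belong to 1 gene cluster, Gprc5b lies at chr7:118995212-118995461 (minus strand) and Dgkeos at chr11:89060501-89060750 (plus strand).
Klra3: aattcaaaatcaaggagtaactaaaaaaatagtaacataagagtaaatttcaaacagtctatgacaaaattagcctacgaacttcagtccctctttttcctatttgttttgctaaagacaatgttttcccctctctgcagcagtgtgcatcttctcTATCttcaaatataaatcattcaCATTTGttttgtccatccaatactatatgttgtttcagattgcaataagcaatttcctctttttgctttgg
Klra10: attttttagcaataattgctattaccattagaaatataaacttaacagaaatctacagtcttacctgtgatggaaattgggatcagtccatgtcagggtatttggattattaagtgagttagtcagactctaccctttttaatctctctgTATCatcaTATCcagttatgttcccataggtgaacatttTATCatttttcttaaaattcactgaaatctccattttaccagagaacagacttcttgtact
Gprc5b: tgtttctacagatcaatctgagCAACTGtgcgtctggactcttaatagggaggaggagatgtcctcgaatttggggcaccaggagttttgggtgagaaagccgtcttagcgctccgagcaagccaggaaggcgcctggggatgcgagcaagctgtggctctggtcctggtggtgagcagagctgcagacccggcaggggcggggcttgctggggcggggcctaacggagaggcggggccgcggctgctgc
Dgkeos: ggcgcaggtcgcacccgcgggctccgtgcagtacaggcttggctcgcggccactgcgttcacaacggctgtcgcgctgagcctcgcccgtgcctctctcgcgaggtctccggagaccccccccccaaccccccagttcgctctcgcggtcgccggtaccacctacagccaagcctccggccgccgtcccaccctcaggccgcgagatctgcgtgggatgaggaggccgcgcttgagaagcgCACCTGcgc
Klra3 holds 1 CANNTG and 1 GATA, Klra10 holds 3 GATA and no CANNTG, and Gprc5b and Dgkeos hold 1 CANNTG each. The 2 Klra windows were 51.3% identical over their global alignment. Of the 42 lower genes off the lists 30 have a window, and 76.7% of these hold CANNTG and 53.3% hold GATA. For the 42 higher genes, again 30 with a window, the shares are 70% and 30%. Among 8586 tested genes with a window, 57.2% hold CANNTG and 41.6% hold GATA. The AP-1 motif TGACTCA, read on both strands in the same windows, is held by 13.3% of the lower genes, 10% of the higher genes and 2.95% of all tested genes. These are matches of letters in a short window and no measure of binding.

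Some genes were instead higher than wild-type in both groups. Btg1, an anti-proliferative gene of quiescent lymphocytes, was highly expressed, at 13.64, 13.43 and 13.44 on the knockout arrays against 11.85, 12.26 and 12.45 on the wild-type arrays. It differed by 1.34 ± 0.19 in the knockout (adjusted p = 0.00351) and by 0.84 ± 0.19 in Lmo2 (adjusted p = 0.00998), its second probe rose by 1.46 in the knockout, and no single array decided the call. It was the 1 changed gene among 20 measured cell-cycle inhibitor and quiescence genes, whose median was 0.00, where 1.04% of all genes changed. Gadd45g, a stress-response gene that restrains the cell cycle, differed by 1.05 ± 0.20 (adjusted p = 0.0199) and 0.97 ± 0.20 (adjusted p = 0.00568). The Gadd45g call in the knockout was lost without replicate 2 (adjusted p = 0.119) or 3 (adjusted p = 0.164) and against the numbered wild-type arrays (adjusted p = 0.0787). A second Gadd45g probe differed by 0.92 in the knockout without passing (adjusted p over probes 0.175). Rem2, a small GTPase, and Plscr4, a scramblase, were not detected on any wild-type array and were at least 1.41-fold (adjusted p = 0.0035) and 1.24-fold higher (adjusted p = 0.00619) in the knockout.

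**Figure D4:**
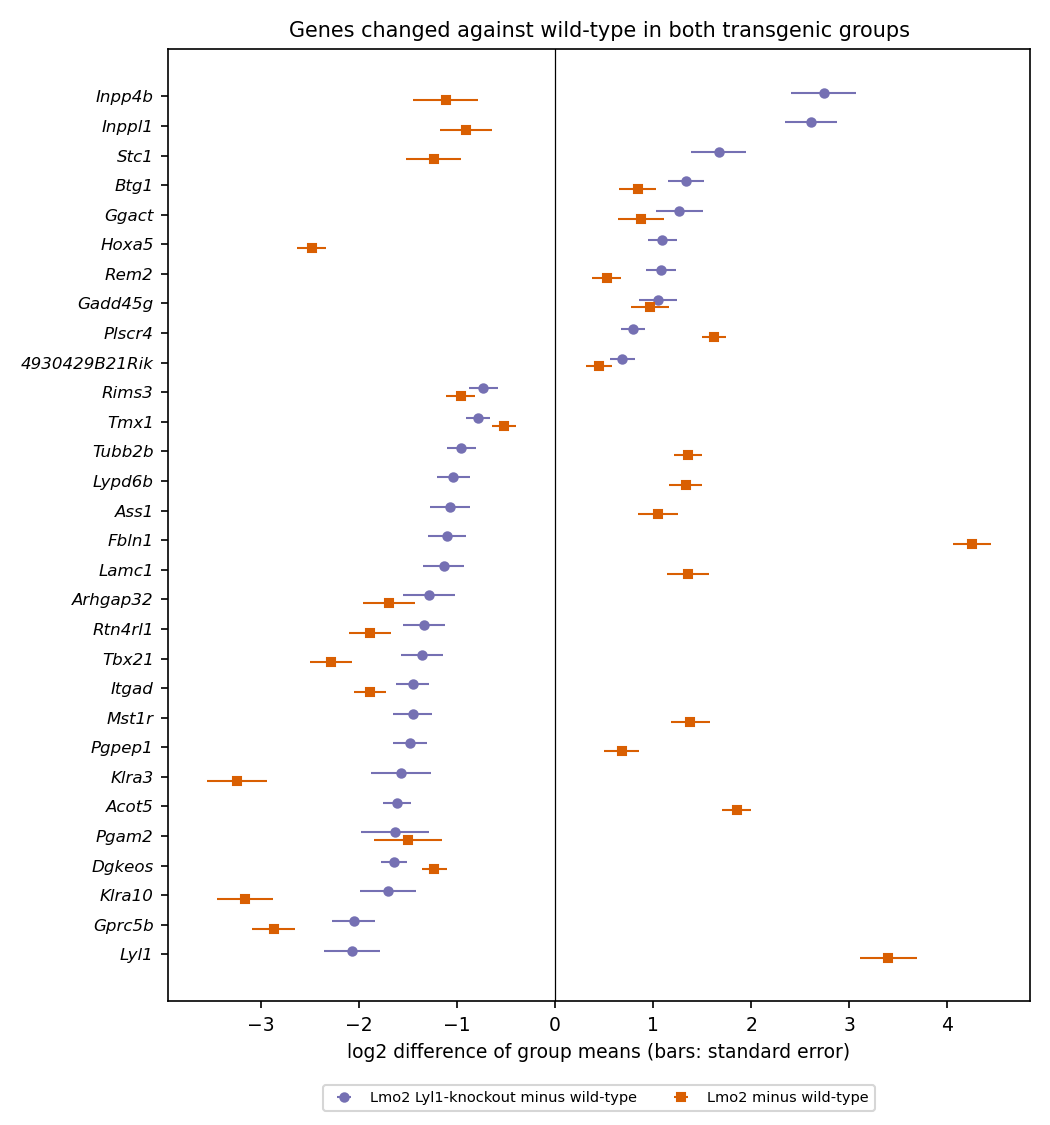
log2 differences from wild-type of the Lmo2 Lyl1-knockout group (purple circles) and the Lmo2 group (orange squares), with standard errors, for the genes off the granulocyte and macrophage lists that passed the threshold in both; the 2 groups share their wild-type arrays. Klra3, Klra10, Tbx21 and Gprc5b lie left of 0 in both groups, while Hoxa5, Inpp4b, Inppl1 and Stc1 lie right of 0 in the knockout and left of it in Lmo2, and Fbln1, Lyl1 and Acot5 the other way round.

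Other genes were changed in opposite directions in the 2 groups. Hoxa5, a homeobox gene of early progenitors, read 8.07, 8.14 and 8.09 on the knockout arrays, above the wild-type range of 6.74 to 7.34, whereas it was not above background on any Lmo2 array. The difference from wild-type was 1.09 ± 0.15 in the knockout (adjusted p = 0.00338), and Hoxa5 was at least 3.32-fold lower in Lmo2 (adjusted p = 6.35e-07). Its call in the knockout held without any 1 array. Hoxa7 stood at 9.46, 9.59 and 9.66 on the knockout arrays and 8.10 to 9.50 in wild-type, a difference of 0.91 that did not pass (adjusted p = 0.139), and Meis1 at 0.06 (adjusted p = 0.917). Acot5, a peroxisomal acyl-CoA thioesterase, was not above background on the knockout arrays, at 5.03, 5.03 and 4.77 against 6.47 to 6.71 in wild-type. It was at least 2.60-fold lower in the knockout (adjusted p = 0.000197) and 1.85 ± 0.15 higher in Lmo2 (adjusted p = 4.69e-06). Mst1r, the receptor tyrosine kinase RON, fell by 1.45 in the knockout (SE 0.20, adjusted p = 0.00344), at 6.11, 6.33 and 6.24 against 7.33 to 8.04, and rose by 1.38 in Lmo2 (adjusted p = 0.000523). A second Mst1r probe differed by -1.21 in the knockout without passing (adjusted p over probes 0.12). Acot5 and Mst1r kept their knockout call without any 1 array.

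A list of 14 genes that the Lmo2 arrays express and wild-type arrays hardly do, chosen on these samples and so no independent evidence, was higher in Lmo2 versus wild-type at 14 of 14 members, with a median of 4.31, and in the knockout at 0, with a median of 0.01. In the knockout 4 of the 14 had an unadjusted p under 0.05, where 12.1% of all genes did. The matrix protein gene Fbln1, the 1 lower member, differed by -1.10 ± 0.19 in the knockout (adjusted p = 0.0133), at 5.08, 5.30 and 5.02 against 5.97 to 6.60, and 4.25 higher in Lmo2. The Fbln1 call was lost without knockout replicate 1, 2 or 3 (adjusted p 0.0542 to 0.105), and its 3 other probes differed by -0.65 to 0.04 without passing. In the knockout the 14 members spanned -1.10 to 0.89, so some lay above wild-type. The 19 measured early progenitor genes spanned -2.07 to 0.91, with a median of 0.02. Below wild-type without passing were the progenitor gene Cd93 (-1.08, adjusted p = 0.0588), the mast-cell protease gene Cpa3 (-0.91, adjusted p = 0.121) and the stem cell factor receptor gene Kit (-1.12, adjusted p = 0.255). A second Kit probe differed by -0.05 (adjusted p over probes 0.985). A second Cd93 probe passed the threshold over probes, at -1.17 ± 0.22 (adjusted p = 0.0258).

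Across 27 lists besides the granulocyte and macrophage ones, 12 of 364 measured genes changed (3.3%, against 1.04% of all genes) and 15 lists had no changed member. The 12 include the targeted gene Lyl1, and Fbln1 from the list chosen on these samples. All lists were chosen with earlier results of these data known, so the share is in part built in. Of 14 measured double-positive thymocyte genes 2 were lower, Dgkeos and Aqp11, where 0.399% of all genes were lower. The median of that list was 0.01, and 4 of the 14 had an unadjusted p under 0.05, where 12.1% of all genes did. Aqp11 differed by -0.85 ± 0.17 (adjusted p = 0.0289) and lost its call in 6 of the 9 fits without 1 array. No member changed among 17 commitment factors, 17 co-receptor and costimulation genes, 16 T-cell receptor signalling genes, 14 IL-7, KIT and STAT5 genes, 24 S-phase genes, 22 mitosis genes and 14 BCL-2 family genes, with list medians between -0.15 and 0.11. These are 7 of the 15 lists without a changed member. Over their 124 genes 12 had an unadjusted p under 0.05 (9.68%, against 12.1% of all genes), spread unevenly over the lists. There were 5 among the 14 IL-7, KIT and STAT5 genes and 3 among the 16 T-cell receptor signalling genes. The commitment, co-receptor and BCL-2 lists had 0. The pre-T-cell receptor gene Ptcra, which fell by 2.67 in Lmo2 (adjusted p = 0.000227), stood at 9.25, 8.93 and 8.57 on the knockout arrays and 8.37 to 9.31 in wild-type (adjusted p = 0.944). Rag1 differed by -0.22 (adjusted p = 0.559) in the knockout and by -1.52 in Lmo2 (adjusted p = 3.05e-05). Of 12 Notch-pathway genes 1 changed, where 1.04% of all genes did. At an unadjusted p under 0.05 there were 3 of the 12, against 12.1% of all genes. The changed gene was Hey1, a Notch target undetected in wild-type, at least 1.40-fold higher (adjusted p = 0.0146). Hey1 did not pass when any 1 knockout array was left out (adjusted p 0.0631 to 0.105). Notch3, Myc, Dtx1 and Hes1 did not pass. Of 29 interferon-stimulated genes Trim30a alone changed, where 1.04% of all genes did, and 6 of the 29 had an unadjusted p under 0.05, against 12.1% of all genes. A p that misses the threshold does not show that levels were equal.

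Of the 84 genes off the lists, 56 passed the threshold against the numbered arrays and against the NHD13-named ones in a fit with 4 group means, 28 higher and 28 lower. The other 28 passed against the NHD13-named arrays only. Over all genes, 0.931% changed against the numbered arrays (0.627% higher, 0.304% lower) and 11.7% against the NHD13-named arrays (5.29% higher, 6.43% lower). Among the 56 were Pbx4, Riiad1, Inppl1, Inpp4b, Hoxa5, Btg1, Gpc1, Gprc5b, Dgkeos, Itgad, Acot5 and Tbx21.

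**Figure D5:**
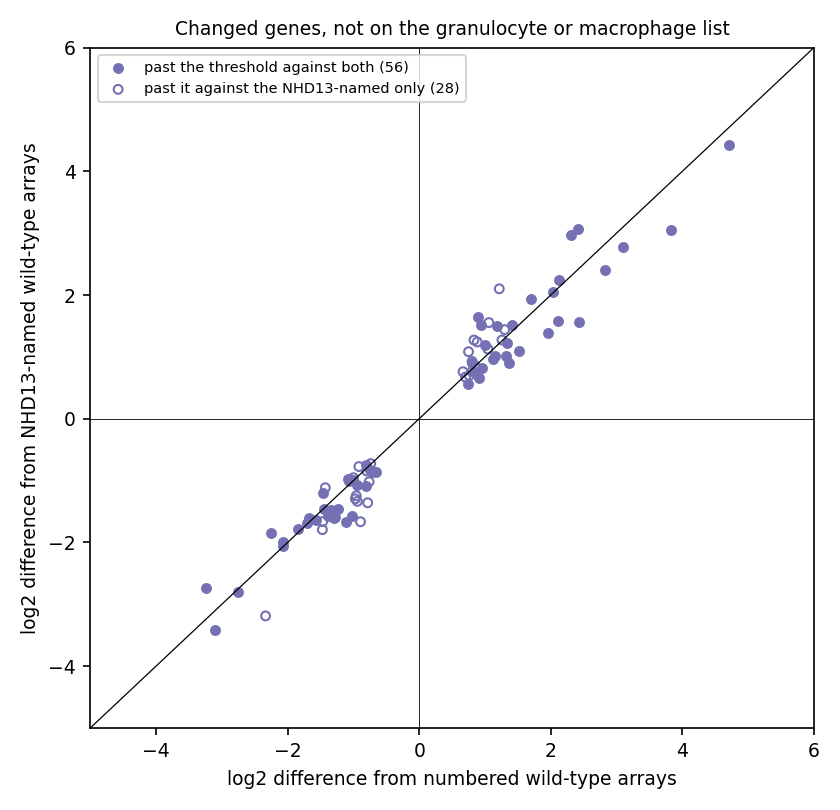
log2 differences of the 84 changed genes off the granulocyte and macrophage lists, knockout minus numbered wild-type arrays on the horizontal axis and knockout minus NHD13-named arrays on the vertical axis; the diagonal marks equal differences. The 56 filled points passed the threshold against both kinds and the 28 open ones against the NHD13-named arrays only. The same sign on both axes follows from the choice of genes, whose knockout arrays overlap no wild-type array.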

How the data were processed

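RNA from sorted double-negative thymocytes was hybridised to 12 single-colour bead arrays, of which 9 are compared here. The authors deposited a raw table with 1 linear intensity per probe and array, and each intensity has its detection p-value per the file headers. The submitters' processing notes name BeadStudio and limma, and no source used here gives the background step. The deposited value table holds log2 values; each of its columns matched 1 raw array with a correlation of at least 0.9999 and a mean absolute difference of up to 0.0527, column medians were 4.88 to 4.89, and its NHD13-named columns are labelled wild-type. Scale and direction follow from this match, as does the lack of centring.

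Raw intensities were corrected, quantile-normalised and logged with neqc (offset 16; limma 3.58.1, R 4.3.3). Of 45281 probes, 34885 carried 1 symbol, 18 several and 10378 none; 34807 matched a RefSeq gene (GRCm38.p6), used for names and gene order. Probes with a detection p under 0.05 on at least 3 arrays were kept (20651, of which 3525 without a single symbol were left out), and the brightest per gene gave 10526 genes. Group means were fitted to all 12 arrays with lmFit and eBayes (9 residual degrees of freedom), two-sided. Where a probe was undetected on all arrays of the dimmer group, a bound replaces the fold: the brighter mean is set against the dimmer group's mean after each of its arrays is raised, where lower, to the lowest value of a detected probe. In data simulated for this comparison over 10526 genes, 46 of 100 changes of 1 log2 unit and 95 of 100 of 2 were recovered, with 6 false calls. The simulated noise was normal and independent between genes and arrays, without a difference between wild-type kinds or a shared granulocyte signal. These rates therefore need not hold for the measured arrays.

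Genes, members and the 29 lists were chosen with earlier results of these data known. Named were key genes; the 15 largest changes in each direction off the granulocyte and macrophage lists; 6 granulocyte genes; up to 5 changed genes of each other list; up to 12 genes in each direction that changed alike in both transgenic groups or against both wild-type and Lmo2; up to 8 changed oppositely; and the 5 measured genes on each side of Lyl1. In all, 24 alternatives were planned and 1 was added after the data were seen.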

Additional observations from a re-analysis of the deposited data

Results flagged for a closer look

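Among 94 named genes tested for a wild-type array that stands apart from the other 5, 1 was marked: Zfp869 read 9.67 on 1 NHD13-named array, with the nearest other array at 9.81. Chance marks about 1 in 20 groups. All 3 knockout arrays of this gene lay below that value, and the call held in each fit without 1 array.

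Among 3525 kept probes without a single gene symbol, 5 were detected on every knockout array and on no wild-type array. Of the 3525 probes, 21 changed between knockout and wild-type arrays (0.596%), 7 higher and 14 lower, and 1 of the 5 was among them. They are not named here.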

How the results depend on the processing

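Of 58 changed genes named, 14 kept their call under each planned setting with a value for them, up to 22 other settings. Off the granulocyte and macrophage lists these were 11: Acot5, Chil4, Dgkeos, Fn3krp, Gprc5b, Inpp4b, Inppl1, Itgad, Pbx4, Riiad1 and Zfp869. With the setting added after the data were seen, the granulocyte covariate below, 1 of the 58 kept its call in every setting, Pbx4. The 109 changed genes became 186 with only the 9 arrays compared, 51 with numbered and 1067 with NHD13-named wild-type arrays alone, 216 with the kinds as separate groups, 2392 with array weights and 64 at an adjusted p under 0.01. The 84 genes off the lists became, in the same order, 158, 29, 1035, 183, 2344 and 43, and 52 with each array scaled to 1 median. The 12 changed genes of other lists became 24, 2, 36, 89 (array weights), 6 (adjusted p under 0.01) and 7 (median scaling). The share of changed genes that were higher was 61.5%, and 75% with median scaling (median of all genes 0.09), 75.8% with the replicate block, 74.5% with numbered and 45.1% with NHD13-named arrays, 45.9% with array weights, 52.2% with the 9 arrays and 52.3% with separate kinds, so lower genes were the more numerous in 2 of these. The 16 genes of chromosome 8 became 10 with median scaling, 4 with the replicate block, 31 with separate kinds, 73 with NHD13-named arrays and 140 with array weights, and the 25 granulocyte and macrophage genes 16 with the replicate block and 48 with array weights. For replicate numbers shared between groups, correlations of deviations were 0.166, -0.0589 and -0.0451 between knockout and wild-type arrays. They were 0.129, 0.0763 and 0.0253 between knockout and Lmo2 arrays, and -0.112, 0.17 and -0.306 between Lmo2 and wild-type arrays. With 3 numbered arrays per group these values cannot show whether the samples were paired. With a replicate block over the numbered arrays, the counts of all changed genes, those off the lists and those of other lists were 33, 17 and 2, and 605 in place of 1324 genes changed between Lmo2 and wild-type. That count was 775 with median scaling, 750 and 2429 with numbered or NHD13-named arrays, 692 at 0.01 and 695 at 2-fold; between knockout and Lmo2, 1084 became 696, 616 (0.01), 703 (2-fold). The 9 genes shared against disjoint wild-type arrays became 58 with the arrays exchanged, and the 699 genes between wild-type kinds became 253 with median scaling.

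Leaving out 1 array gave 47 to 134 changed genes, 35 to 96 off the lists, 4 to 13 on other lists, 12 to 38 on the granulocyte and macrophage lists, 10 to 18 on chromosome 8, 1030 to 1361 for Lmo2 versus wild-type and 749 to 1085 for knockout versus Lmo2; the lowest totals came without knockout replicate 2 (52) and 3 (47). An alternative chosen after seeing the data took the mean granulocyte-list level of each array as a covariate. It left 1 changed gene (Pbx4), 1 off the lists, 0 on the other lists and 116 between knockout and Lmo2, and Mgst1 turned to -0.09. Group membership accounts for 0.811 of that covariate's variance, so the covariate also removes group differences. The cause of the other shifts was not tested.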
